A study of Homo sapiens with 5 samples.

Results

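Basement membranes are thin sheets of matrix on which epithelial and endothelial cells rest. Type IV collagen chains wind into trimers that link into a network, and laminins, each made of an alpha, a beta and a gamma chain, form a second network at the cell surface, with nidogen and the proteoglycan perlecan bridging the sheets. In the kidney such sheets surround the tubules and form the filter of the glomerulus. Ascorbic acid (vitamin C) keeps the iron of the collagen prolyl and lysyl hydroxylases in its ferrous form, and these enzymes modify collagen chains before they leave the cell. The 10 genes described here encode type IV collagen chains (COL4A1, COL4A2, COL4A5, COL4A6), laminin chains (LAMA1, LAMA5, LAMB1, LAMC1), nidogen-1 (NID1) and perlecan (HSPG2). They were chosen by gene symbol, and all 10 were found among the 28278 symbols of the count table.

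The cells were HEK293T, a cultured line of human embryonic kidney origin carrying a viral large T antigen, so the matrix genes are those of a single line, and polyadenylated RNA was captured on beads for sequencing. The first group held 2 libraries of cells given ascorbic acid, and the second held 3 libraries of control cells labelled wild type. Treated cells were seeded for 24 h and then kept in ascorbic acid with fresh medium every 6 h. Treatment lasted 24 h where DNA methylation was to be tested and 36 h where RNA methylation was, and the labels state neither which time these libraries had nor a dose. Whether libraries of a group had separate cultures is not in the labels, so all p-values rest on library-to-library spread, which could be technical only. In bulk RNA, fewer expressing cells and less RNA per cell cannot be told apart.

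Libraries held 35106664 to 57212071 counts. Within a group, every couple of libraries differed beyond counting noise (between 3.95 and 7.20 chi-square units per degree of freedom). These units were computed on the counts as deposited, most small ones of which were even, and doubled counting would raise them. The embryonic kidney genes SALL1, EYA1, SIX2 and WT1 averaged 55.5, 28.97, 23.8 and 11.2 CPM (read counts relative to the TMM-scaled library total) with ascorbic acid and 56.9, 34.03, 22.5 and 10.5 CPM in controls, and of these EYA1 fell. Endothelial cells, fibroblasts and podocytes are other known sources of basement membrane. Of 8 endothelial markers 5, among them PECAM1, CDH5 and TEK, had at most 3 counts in every library, and the list summed to 0.742 to 1.03 CPM with ascorbic acid and 0.586 to 0.895 CPM in controls. Of 8 fibroblast markers COL1A2, DCN, THY1 and FAP had at most 3 counts in every library, and the list summed to 1.53 to 2.27 CPM with ascorbic acid and 1.0 to 1.31 CPM in controls. The podocyte gene NPHS1 had at most 3 counts in every library, while PODXL and CD2AP, which podocytes share with other cells, averaged 30.9 and 70.0 CPM with ascorbic acid and 37.9 and 76.8 CPM in controls, and of these PODXL fell. Neural markers, 8 in all, summed to 57.4 to 61.5 CPM with ascorbic acid and 42.2 to 46.0 CPM in controls. Among them NEFM alone averaged 29.03 CPM with ascorbic acid and 17.24 CPM in controls, and of 6 tested 3 rose and 0 fell. The 8 epithelial markers summed to 34.8 to 38.9 CPM with ascorbic acid and 29.3 to 32.2 CPM in controls. Among them KRT5, KRT14, KRT19 and KRT7 had at most 3 counts in every library. KRT18 alone averaged 33.17 CPM with ascorbic acid and 27.98 CPM in controls, and of 3 tested epithelial markers 2 rose and 0 fell. Of the 6 haematopoietic markers PTPRC, CD3E and HBB had at most 3 counts in every library, and the list summed to 1.73 to 1.82 CPM with ascorbic acid and 1.5 to 1.91 CPM in controls. Of the 2 tested fibroblast markers 0 rose and 0 fell. Of all tested genes 8.53% rose, 5.76% fell and 43.1% did not overlap between the groups. Of the 5 sums given, the fibroblast, neural and epithelial ones were higher with ascorbic acid and did not overlap between the groups. EYA1 and PODXL were lower with ascorbic acid in both libraries. The part of these genes in the results was not tested.

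COL4A1 and COL4A2 lie head to head on chromosome 13, and COL4A6 and COL4A5 do so on chromosome X, so each couple is transcribed outward from a common stretch of DNA. In the RefSeq promoter table (GRCh38.p14, 250 bases before to 50 after each transcript start) the COL4A1 and COL4A2 starts are 127 bases apart and their windows share 226 bases. The starts of COL4A6 (the nearer of its 2 windows) and COL4A5 are 380 bases apart and those windows share 121 bases. These windows are shown because the collagen pairs are compared below, and those of LAMB1, LAMC1 and HSPG2 because these genes passed the test. Each is printed along its gene's own strand. Capitals mark matches, on either strand, to the GC box (GGGCGG or CCGCCC) and to the CCAAT box (CCAAT or ATTGG). Adjacent GC box matches can overlap, as in LAMB1 and HSPG2, and each is then counted.

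COL4A1 is read from the minus strand of chr13:110307108-110307407 and COL4A2 from the plus strand of chr13:110307034-110307333.
COL4A1: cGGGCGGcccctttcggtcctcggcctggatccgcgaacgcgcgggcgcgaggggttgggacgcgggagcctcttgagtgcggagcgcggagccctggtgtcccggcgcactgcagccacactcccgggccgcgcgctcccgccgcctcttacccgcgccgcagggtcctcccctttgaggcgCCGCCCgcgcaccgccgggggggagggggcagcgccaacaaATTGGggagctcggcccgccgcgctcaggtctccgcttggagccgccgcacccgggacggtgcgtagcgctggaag
COL4A2: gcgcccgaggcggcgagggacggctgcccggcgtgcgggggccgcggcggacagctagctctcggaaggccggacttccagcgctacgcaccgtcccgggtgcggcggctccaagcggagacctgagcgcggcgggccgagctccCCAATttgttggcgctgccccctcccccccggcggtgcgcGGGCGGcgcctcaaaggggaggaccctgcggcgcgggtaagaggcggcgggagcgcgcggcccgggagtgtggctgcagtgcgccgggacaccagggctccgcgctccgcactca

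COL4A6 is read from the minus strand of chrX:108439409-108439708 and COL4A5 from the plus strand of chrX:108439588-108439887.
COL4A6: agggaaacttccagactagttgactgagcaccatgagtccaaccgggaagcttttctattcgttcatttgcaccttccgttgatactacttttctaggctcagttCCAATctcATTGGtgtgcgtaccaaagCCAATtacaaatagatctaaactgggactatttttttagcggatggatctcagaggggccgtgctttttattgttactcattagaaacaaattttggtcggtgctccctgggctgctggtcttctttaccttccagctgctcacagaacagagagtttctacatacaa
COL4A5: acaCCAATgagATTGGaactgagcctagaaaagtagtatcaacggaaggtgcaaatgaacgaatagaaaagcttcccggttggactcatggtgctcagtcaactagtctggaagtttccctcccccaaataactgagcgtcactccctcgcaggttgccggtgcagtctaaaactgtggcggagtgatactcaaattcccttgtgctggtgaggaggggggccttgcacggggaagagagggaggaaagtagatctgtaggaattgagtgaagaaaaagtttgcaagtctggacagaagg

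LAMB1 is read from the minus strand of chr7:108003112-108003411, LAMC1 from the plus strand of chr1:183023170-183023469 and HSPG2 from the minus strand of chr1:21937261-21937560.
LAMB1: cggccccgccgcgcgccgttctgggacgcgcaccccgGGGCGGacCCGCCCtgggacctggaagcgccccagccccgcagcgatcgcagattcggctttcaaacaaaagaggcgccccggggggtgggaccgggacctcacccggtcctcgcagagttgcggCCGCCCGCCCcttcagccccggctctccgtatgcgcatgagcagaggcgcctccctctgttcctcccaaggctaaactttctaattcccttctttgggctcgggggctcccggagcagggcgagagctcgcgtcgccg
LAMC1: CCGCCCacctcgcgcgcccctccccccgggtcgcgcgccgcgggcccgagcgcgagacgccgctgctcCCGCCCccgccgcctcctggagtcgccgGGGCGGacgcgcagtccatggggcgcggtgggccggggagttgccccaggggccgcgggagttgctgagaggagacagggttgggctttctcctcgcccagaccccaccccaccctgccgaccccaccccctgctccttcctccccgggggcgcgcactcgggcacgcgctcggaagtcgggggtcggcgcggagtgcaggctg
HSPG2: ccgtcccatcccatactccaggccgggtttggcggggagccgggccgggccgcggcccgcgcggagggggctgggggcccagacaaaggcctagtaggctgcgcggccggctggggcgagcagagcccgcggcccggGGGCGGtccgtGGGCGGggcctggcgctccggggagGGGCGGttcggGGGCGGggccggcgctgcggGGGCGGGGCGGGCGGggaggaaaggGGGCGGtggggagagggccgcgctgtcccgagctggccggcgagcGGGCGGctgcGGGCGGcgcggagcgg

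The CCAAT match of COL4A2 and the ATTGG match of COL4A1 are the same site read from opposite strands, between the starts of the genes, and so is the GC box beside it. Likewise, both CCAAT box matches of COL4A5 lie in the stretch shared with COL4A6. The COL4A1 and COL4A2 windows were 76.7% and 77.7% G and C, while those of COL4A6 and COL4A5 were 43.7% and 49.3%, against a median of 58.7% over the 35116 windows of the table. HSPG2, at 83.3% G and C, held 10 GC box matches, LAMB1 4 and LAMC1 3. Of the 10 windows listed for 9 members (LAMA1 is named only), 8 held a GC box, against 45% of all windows, and 5 a CCAAT box, against 34.6%. Windows of the head-to-head genes overlap, so their shared sites are counted more than once in these numbers. A TATA box (TATAAA or TTTATA) was in 0 of the 10 and in 11.5% of all windows. A match is a string of letters and not a shown binding site.

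The effect of ascorbic acid on the 10 genes was asked with edgeR's quasi-likelihood test over 15271 genes, in which all 10 members passed the filter on low counts. LAMB1 and HSPG2 rose, COL4A2 and LAMC1 fell, and 6 did not pass a Benjamini-Hochberg adjusted p of 0.05. Of all tested genes 14.3% passed, 8.53% higher and 5.76% lower. Among the 9258 genes with a mean level between those of the lowest and highest member, 15.8% passed, 7.50% higher and 8.28% lower. The members' median log2 fold change was 0.06, against 0.00 over all tested genes and -0.02 over genes in that range. The groups did not overlap for 6 of the 10, against 43.1% of all tested genes. Every call among the 10 was of a change under 1.5-fold.

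The number of members past the threshold varied with the fit, as did the share of all tested genes. It was 4 of 10 with DESeq2 (12.5% of genes), limma-voom (14.3%), DESeq2 size factors (14.8%), no robust prior (14.0%), no filter (11.0%), a replicate block (12.3%), halved counts (15.8%) and GC and length trends removed (20.1%). It was 3 with library totals (13.8%), upper-quartile factors (13.3%) and a filter at 5 CPM (15.3%), 2 with cyclic loess (9.48%) and 0 against a fold of 1.2 (1.87%), where 2 members were higher and 0 lower at an unadjusted p under 0.05. Without ascorbic acid replicate 1 or 2 it was 2 (9.45%) and 3 (9.79%), and without control replicate 1, 2 or 3 it was 2 (7.79%), 3 (10.5%) and 4 (13.4%).

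**Figure D1:**
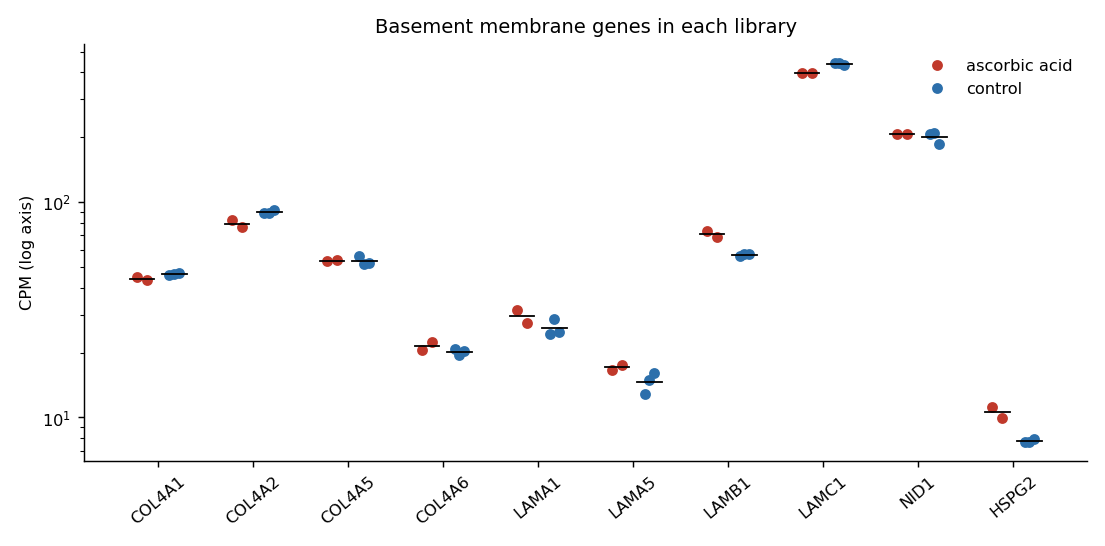
Level of the 10 basement membrane genes (CPM, log axis) in each of 2 ascorbic acid and 3 control libraries; points are libraries and bars are group means. The ascorbic acid libraries lie above every control for LAMB1, HSPG2 and LAMA5 and below every control for COL4A1, COL4A2 and LAMC1.

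The collagen IV chains were taken first. COL4A2 encodes the alpha-2 chain, which joins alpha-1 chains in the most widespread collagen IV trimer (chromosome 13, 110305812 to 110513209, GRCh38). It had 82.6 and 76.5 CPM with ascorbic acid, against 88.8, 88.6 and 91.6 CPM in controls. Both treated libraries were below all controls. The log2 fold change was -0.17 ± 0.05 (SE), a change of -11.3% (edgeR adjusted p = 0.0258). With GC and length trends removed, the change was -0.28 (edgeR adjusted p = 3.5e-06). The call held in 9 of 18 alternative fits. This call did not hold without ascorbic acid replicate 2 (-0.13, adjusted p = 0.177) or without control replicate 1, 2 or 3 (-0.17, -0.18 and -0.16, adjusted p = 0.0762, 0.0638 and 0.0625). It also ended when scaled by library totals alone (-0.13, adjusted p = 0.0940), with cyclic loess (-0.14, adjusted p = 0.0920) and with the filter at 5 CPM (-0.15, adjusted p = 0.0550).

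COL4A1, the alpha-1 chain gene on the other side of the shared promoter (chromosome 13, 110148963 to 110307233), had 44.7 and 43.3 CPM with ascorbic acid and 45.9, 46.3 and 47.1 CPM in controls. Its groups did not overlap either, but the log2 difference of -0.08 did not pass (95% interval -0.20 to 0.04, edgeR adjusted p = 0.422), and was -0.03 with library totals and -0.12 with GC and length trends removed. That interval overlaps the one of COL4A2, which ran from -0.28 to -0.07. The antisense genes COL4A2-AS1 and COL4A2-AS2 had 0 to 4 and 0 to 2 counts per library, and how reads shared with COL4A2 were assigned was not tested.

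COL4A5 and COL4A6 encode the alpha-5 and alpha-6 chains, which build collagen IV of some epithelial sheets, and COL4A5 is the gene of X-linked Alport syndrome, an inherited kidney disease. COL4A5 (chromosome X, 108439844 to 108697545) ranged from 53.1 to 53.7 CPM with ascorbic acid and from 51.4 to 55.9 CPM in controls. The treated libraries lay inside the control range, and the log2 fold change was 0.00 (95% interval -0.11 to 0.12, edgeR adjusted p = 0.978). COL4A6 (chromosome X, 108155607 to 108439497) ranged from 20.6 to 22.4 CPM with ascorbic acid and from 19.5 to 20.9 CPM in controls, and its log2 difference of 0.08 did not pass (95% interval -0.07 to 0.24). The COL4A6 difference was 0.14 without ascorbic acid replicate 1 and 0.01 without ascorbic acid replicate 2. The collagen IV genes outside the set, COL4A3 and COL4A4, averaged 0.615 and 1.46 CPM with ascorbic acid and 0.673 and 1.92 CPM in controls. Neither passed (edgeR adjusted p = 0.916 and 0.233).

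Among the 4 laminin chains of the set, LAMB1 had the smallest p. It encodes the beta-1 chain of laminins 111, 411 and 511 (chromosome 7, 107923799 to 108003255). On the opposite strand, exons of DLD cover 0.86% and those of AC005046.1, not analysed here, 2.71% of the LAMB1 exon length. DLD had 164.6 to 181.3 CPM per library, and how reads shared with LAMB1 were assigned was not tested. LAMB1 had 73.5 and 69.0 CPM with ascorbic acid, against 56.2, 57.2 and 57.4 CPM in controls. The groups were far apart relative to their spread, and LAMB1 rose 1.25-fold, by 0.33 ± 0.05 on the log2 scale (edgeR adjusted p = 0.000119). The call held in 17 of 18 alternative fits, including all 5 that left out a library (0.28 to 0.36), and ended only in a test against a fold of 1.2 (adjusted p = 0.615).

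LAMC1 encodes the gamma-1 chain, a part of most known laminin trimers (chromosome 1, 183023460 to 183145592). It had 399.4 and 396.6 CPM with ascorbic acid, against 442.7, 442.7 and 431.9 CPM in controls. Both treated libraries were lower, and the log2 fold change was -0.14 ± 0.04 (a change of -9.36%, edgeR adjusted p = 0.0260). The 358 tested genes within 1.5-fold of its mean level had a median log2 fold change of -0.07, and with the trend over level removed by cyclic loess LAMC1 had -0.07 (adjusted p = 0.268). The call also ended without ascorbic acid replicate 1 or 2 (-0.15 and -0.14, adjusted p = 0.0539 and 0.0588) and without control replicate 1 or 2 (-0.13 and -0.13, adjusted p = 0.0857 and 0.127). Library totals (-0.10, adjusted p = 0.107), upper-quartile factors (-0.13, adjusted p = 0.0507) and the filter at 5 CPM (-0.12, adjusted p = 0.0576) likewise ended it. The LAMC1 call held in 9 of 18 alternative fits.

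LAMA1 and LAMA5 encode the alpha chains that give laminins 111 and 511 their cell-binding ends. LAMA1 (chromosome 18, 6941744 to 7117814) had 31.5 and 27.5 CPM with ascorbic acid and 24.5, 28.7 and 25.0 CPM in controls. The groups overlapped, and the log2 difference of 0.18 ± 0.08 did not pass (edgeR adjusted p = 0.115), though it passed without ascorbic acid replicate 2 (0.27, adjusted p = 0.0467) and without control replicate 2 (0.26, adjusted p = 0.0325). Without ascorbic acid replicate 1 the LAMA1 difference was 0.08 (adjusted p = 0.664). LAMA5 (chromosome 20, 62307955 to 62367312) had 16.7 and 17.6 CPM with ascorbic acid and 12.9, 14.9 and 16.0 CPM in controls. Both treated libraries were above all controls, with a log2 difference of 0.24 ± 0.09 that did not pass (edgeR adjusted p = 0.0739). LAMA5 passed without control replicate 3 (0.31, adjusted p = 0.0190), and also with library totals (0.28, adjusted p = 0.0385). It was 0.15 without control replicate 1 (adjusted p = 0.334) and 0.12 with GC and length trends removed (adjusted p = 0.317). Exons of AP002409.1, on the opposite strand and not analysed here, cover 10.3% of the LAMA1 exon length, so its counts are uncertain without a known strand setting. Exons of ADRM1, opposite LAMA5, cover 1.71% of the LAMA5 exon length, and ADRM1 had 93.4 to 105.9 CPM per library.

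Of the linking proteins, HSPG2 had the largest log2 fold change among the 10. It encodes perlecan, a heparan sulfate proteoglycan that binds laminin, nidogen and growth factors (chromosome 1, 21822245 to 21937297). HSPG2 had 11.2 and 9.96 CPM with ascorbic acid, against 7.69, 7.71 and 7.91 CPM in controls. The controls lay within a narrow band and both treated libraries were above it, so HSPG2 rose 1.36-fold (log2 0.45 ± 0.10, edgeR adjusted p = 0.00368). The 1522 tested genes within 1.5-fold of its mean level had a median log2 fold change of 0.06. HSPG2 had 0.37 with cyclic loess (limma adjusted p = 0.0246). With GC and length trends removed it had 0.32 (edgeR adjusted p = 0.0168). Without ascorbic acid replicate 1 the rise was 0.36 and did not pass (adjusted p = 0.0869). LDLRAD2 on the opposite strand overlaps 11.7% of the HSPG2 exon length and had 0 or 1 count per library.

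NID1 encodes nidogen-1, which ties laminin gamma-1 to collagen IV (chromosome 1, 235975830 to 236065162). It had 207.1 and 207.0 CPM with ascorbic acid, and 208.0, 209.9 and 186.9 CPM in controls. The treated libraries lay inside the control range, and the log2 fold change was 0.04 (95% interval -0.06 to 0.14, edgeR adjusted p = 0.668). NID2, encoding the related nidogen-2, averaged 14.0 ± 0.330 CPM with ascorbic acid (SD, n = 2) and 13.8 ± 1.09 CPM in controls (SD, n = 3), a log2 difference of 0.02 that did not pass.

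**Figure D2:**
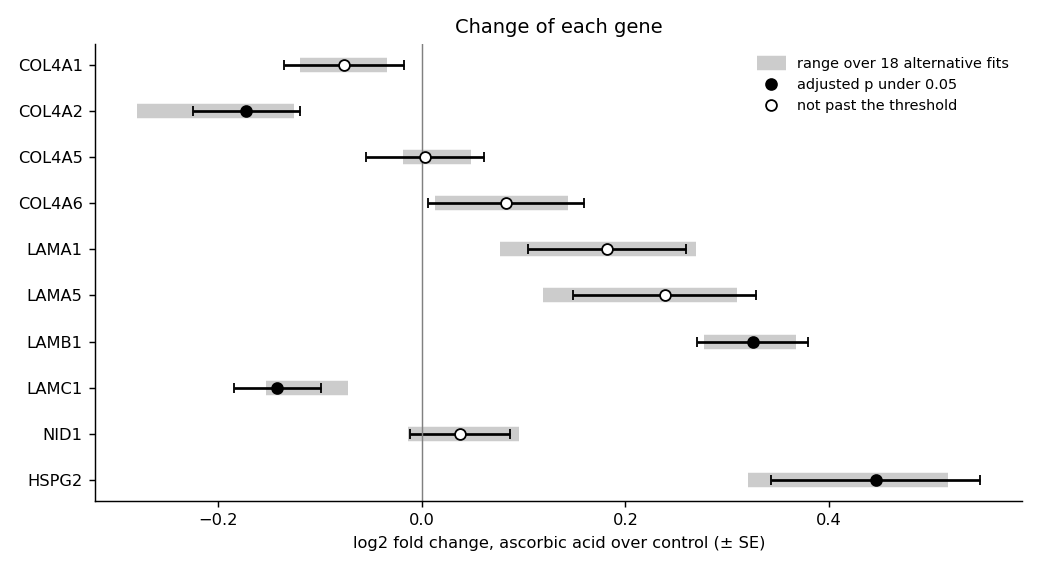
Log2 fold change, ascorbic acid over control, of each gene in edgeR's quasi-likelihood fit (point, with SE bar; filled where adjusted p is under 0.05) and its range over 18 alternative fits (grey band). LAMB1 and HSPG2 lie above 0, and COL4A2 and LAMC1 below 0, over their whole bands, while the bands of COL4A5 and NID1 cross 0.

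Ratios within a library do not depend on scaling, so paired chains were also compared that way, with an exact two-sided permutation test over the 10 ways to assign 2 and 3 libraries, whose smallest possible p is 0.1. The ratio of LAMB1 to LAMC1 counts was 0.184 and 0.174 with ascorbic acid, against 0.127, 0.129 and 0.133 in controls. Both treated libraries were higher than all controls, by a mean of 0.46 on the log2 scale (exact permutation p = 0.1, 0.2 adjusted over 4 pairs). COL4A1 over COL4A2 was 0.542 and 0.566 with ascorbic acid, against 0.517, 0.523 and 0.514 in controls, a log2 difference of 0.10 with groups that did not overlap (exact permutation p = 0.1, adjusted 0.2). COL4A5 over COL4A6 was 2.58 and 2.40 with ascorbic acid and 2.68, 2.63 and 2.57 in controls, and LAMA1 over LAMA5 was 1.89 and 1.56 with ascorbic acid and 1.90, 1.93 and 1.56 in controls. These groups overlapped (exact permutation p = 0.3 and 0.6, adjusted 0.4 and 0.6). The LAMA1 to LAMA5 difference of -0.06 was 0.08 without ascorbic acid replicate 2.

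**Figure D3:**
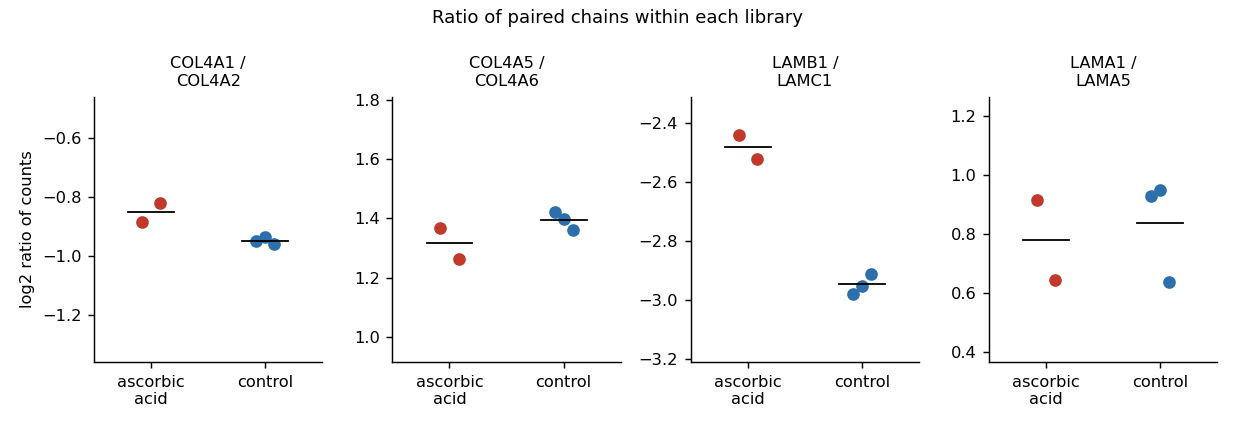
Log2 ratio of the counts of paired chains within each library, by group, with group means as bars; the panels span equal heights on the log2 scale. The LAMB1 to LAMC1 ratio differs by 0.46 between the group means, the largest of the 4 differences in size.

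Levels of different chains were compared as CPM per kilobase of the longest GENCODE transcript. All exons of COL4A2 together span 19293 bases, against 6494 for its longest transcript, and those of LAMB1 8140, against 5766. The order below therefore depends on the length used, and other lengths were not tested. LAMC1 was highest, with 50.5 ± 0.255 CPM per kilobase with ascorbic acid (SD, n = 2) and 55.7 ± 0.791 in controls (SD, n = 3), followed by NID1 with 35.3 and 34.4. COL4A2 had 12.2 with ascorbic acid and 13.8 in controls, and LAMB1 12.4 with ascorbic acid and 9.87 in controls. COL4A5 (8.24 and 8.21 CPM per kilobase with ascorbic acid and in controls), COL4A1 (6.65 and 7.02), COL4A6 (3.18 and 3.0), LAMA1 (2.84 and 2.51), LAMA5 (1.5 and 1.28) and HSPG2 (0.738 and 0.542) followed. Over the 5 libraries the ranges of neighbours in this order overlapped for COL4A2 with LAMB1 and for COL4A6 with LAMA1, and for no other neighbours. COL4A1 was below COL4A2 per kilobase in every library.

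Each chain was then read as a share of its family's CPM per kilobase. COL4A2 made up 41.1% and 39.0% of collagen IV with ascorbic acid, against 42.0%, 42.9% and 43.3% in controls. LAMC1 made up 96.7% and 96.6% of gamma chains with ascorbic acid, against 98.4%, 98.4% and 98.0% in controls, and LAMC3 2.90% and 2.97% with ascorbic acid, against 1.33%, 1.28% and 1.65% in controls. LAMB1 made up 56.9% and 56.5% of beta chains with ascorbic acid and 58.6%, 56.5% and 58.3% in controls, so its share overlapped between groups while its level rose, as LAMB2 rose beside it. Summed per kilobase, alpha chains averaged 13.3 with ascorbic acid and 10.7 in controls, and beta chains 21.8 and 17.1. Gamma chains averaged 52.2 with ascorbic acid and 56.6 in controls, and collagen IV chains 30.5 and 32.3. The groups did not overlap in any of these families, nor did they for 43.1% of all tested genes. These sums contain genes already called above, among them LAMB1, LAMC1 and COL4A2. LAMA3 has transcripts of very different length, so the alpha shares depend on the length used, as do the collagen IV shares. These shares and sums were not tested.

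**Figure D4:**
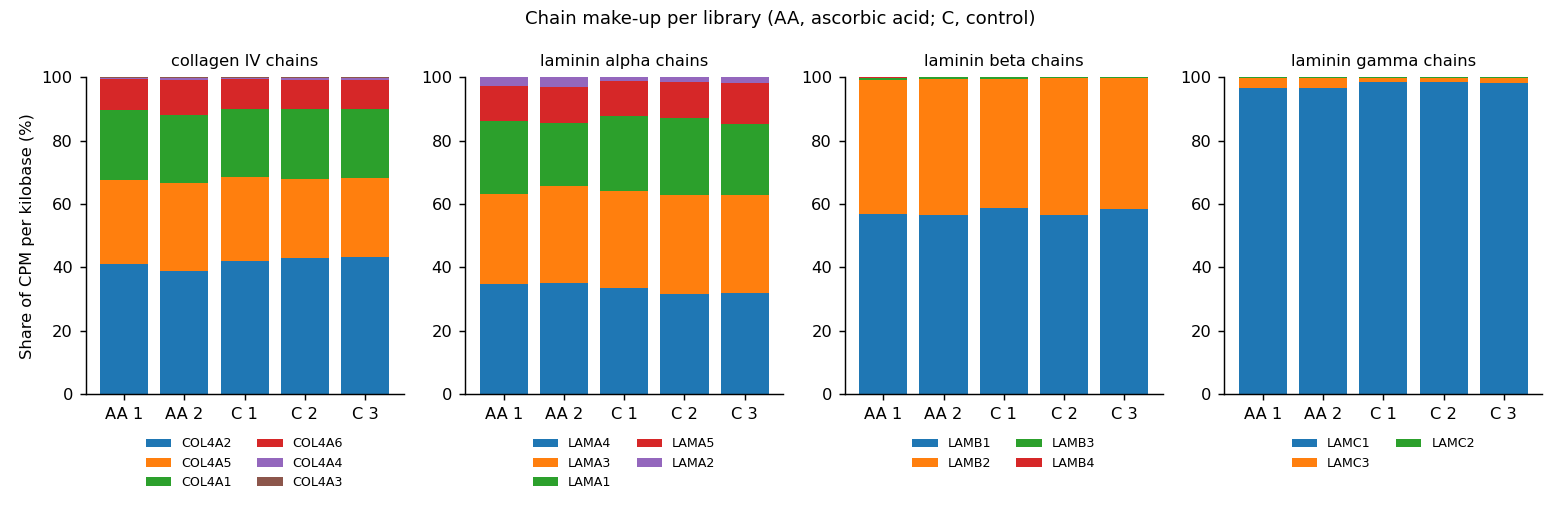
Share (%) of each chain in its family's CPM per kilobase, for collagen IV and for laminin alpha, beta and gamma chains, in 2 ascorbic acid (AA) and 3 control (C) libraries. LAMC1 fills 96.6 to 98.4% of the gamma chains, while alpha chains are spread over LAMA4, LAMA3, LAMA1 and LAMA5.

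The other genes of these families were counted next. Of 11 further collagen IV, laminin and nidogen genes 10 were tested, 5 rose and 5 did not pass, with a median log2 fold change of 0.34. The 5 that rose were all laminin chains. Of all tested genes 8.53% rose. The tested genes of this list had a median level of 4.57 CPM and the members 49.4 CPM, so the lists also differ in level. LAMA2, the alpha chain of muscle and nerve basement membranes, had 3.73 and 4.07 CPM with ascorbic acid, against 1.1, 1.53 and 1.68 CPM in controls, a rise of 1.47 ± 0.19 (log2, edgeR adjusted p = 3.67e-06). LAMC3, the gamma-3 chain gene, rose by 0.94 ± 0.12 and LAMA4, the alpha chain of vascular basement membranes, by 0.43 ± 0.07, and per kilobase both stayed below LAMC1 in every library. LAMB2, the beta chain of the mature glomerular filter, and LAMA3 also rose and were chosen for mention after their values were seen. Of all 12 laminin genes 11 were tested, 6 rose, 1 (LAMC1) fell and 4 did not pass. LAMB4 was too low to test, with 2 to 10 counts per library.

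Of 26 other proteins found in or at basement membranes 19 were tested, 8 rose and 11 did not pass, with a median of 0.08. For this list and the next, the shares over all tested genes were 8.53% higher and 5.76% lower. SPARC, which binds collagen IV, had 54.3 and 49.5 CPM with ascorbic acid, against 32.7, 31.2 and 31.4 CPM in controls. Fibulin-1 (FBLN1) rose by 0.47 ± 0.06 and fibronectin (FN1) by 0.38 ± 0.05 on the log2 scale. The number that rose was 5 without ascorbic acid replicate 1 and 5 with the filter at 5 CPM. Of 14 receptors of matrix proteins, not all of them of basement membranes, 4 rose, 1 fell and 9 did not pass, with a median of 0.24. The collagen receptors DDR1 (0.53 ± 0.09) and DDR2 (0.26 ± 0.05) rose, and DAG1, the gene of the laminin receptor dystroglycan, fell (-0.21 ± 0.05, edgeR adjusted p = 0.00214), with 150.8 and 143.2 CPM with ascorbic acid, against 168.4, 173.1 and 170.6 CPM in controls. The receptors that rose numbered 2 without ascorbic acid replicate 1, without ascorbic acid replicate 2 or without control replicate 2, and those that fell numbered 2 without ascorbic acid replicate 1. The number of receptors that rose was also 2 with DESeq2, cyclic loess or a replicate block, 6 with library totals or upper-quartile factors and 7 with halved counts, and 2 fell with DESeq2, limma-voom or a replicate block.

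Of 23 genes for hydroxylation, folding and export of these chains 5 rose and 18 did not pass, with a median of 0.10. Over all tested genes 8.53% rose and 5.76% fell. The lysyl hydroxylase and glycosyltransferase gene PLOD3, which acts on collagen IV, rose by 0.33 ± 0.06, the prolyl 3-hydroxylase gene P3H2 by 0.87 ± 0.19 and SERPINH1, the collagen chaperone HSP47, by 0.23 ± 0.05 (log2, edgeR adjusted p = 0.000479, 0.00272 and 0.00301). Without ascorbic acid replicate 1 the calls of P3H2 (0.68, adjusted p = 0.0873) and SERPINH1 (0.16, adjusted p = 0.0705) ended, 2 genes of the list rose and 1 fell. With library totals 8 rose, and with GC and length trends removed 6 rose and 1 fell. Of 13 genes that cut or trim these matrices, or inhibit such enzymes, 11 were tested, 4 rose and 7 did not pass, with a median of 0.14. The gelatinase MMP2, which cuts collagen IV, had 6.49 and 6.59 CPM with ascorbic acid, against 3.38, 3.26 and 2.48 CPM in controls (log2 1.09 ± 0.14). ADAMTS1, a protease of proteoglycans, rose by 0.34 ± 0.05 and HPSE, the heparanase that trims the chains of perlecan, by 0.59 ± 0.12. Without ascorbic acid replicate 1 the HPSE call ended (0.44, adjusted p = 0.0659), and 2 genes of this list rose.

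Fibril-forming collagens were set beside the members as the matrix outside basement membranes. Of 11 genes 8 were tested, 5 rose and 3 did not pass, with a median log2 fold change of 0.64 against 0.06 for the members. Over all tested genes 8.53% rose and 5.76% fell. COL3A1 had 8.89 and 8.72 CPM with ascorbic acid, against 3.62, 3.53 and 3.70 CPM in controls, and COL5A2 had 9.92 and 10.6 CPM with ascorbic acid, against 4.62, 4.4 and 4.88 CPM in controls. COL1A1 had 11.1 and 9.45 CPM with ascorbic acid, against 6.41, 6.47 and 6.47 CPM in controls. The tested fibrillar genes had a median level of 6.29 CPM and the members 49.4 CPM, so the lists also differ in level, and the difference between the lists was not tested.

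**Figure D5:**
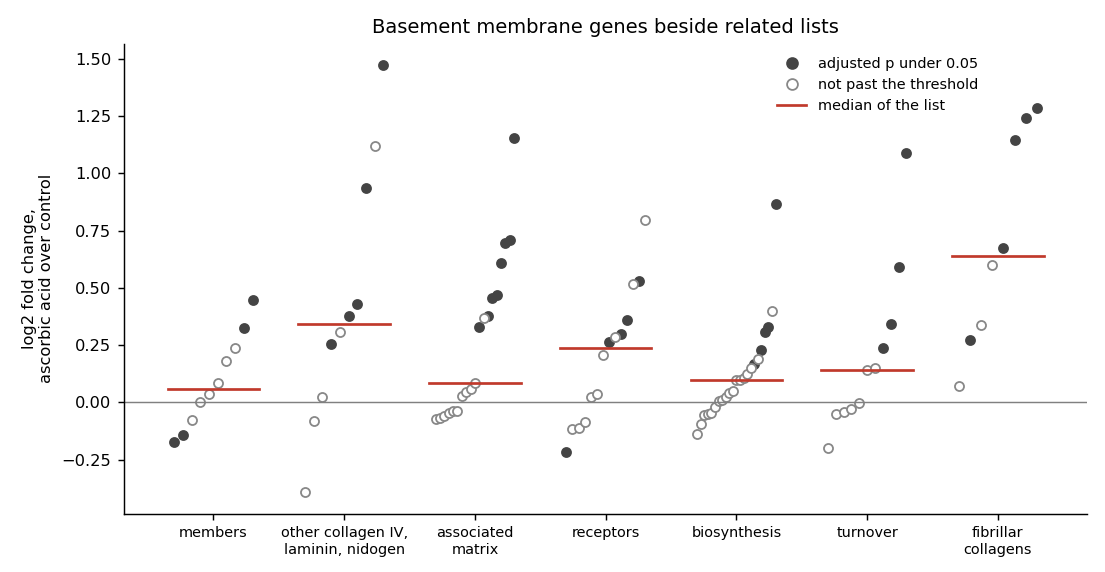
Log2 fold change, ascorbic acid over control, of every tested gene of the 10 members and of 6 related lists (filled points have an edgeR adjusted p under 0.05, red bars are list medians). The median is 0.06 for the members, 0.34 for the other collagen IV, laminin and nidogen genes and 0.64 for fibrillar collagens. These lists also differ in level.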

How the data were processed

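The authors deposited counts of reads per gene symbol, as whole numbers, for 5 libraries. The submitters' processing notes name the hg38 (GRCh38) build and the tools STAR, Trimmomatic 0.39, DESeq2 and featureCounts. The gene annotation and strand handling were not given in the sources used here. The column prefixes "vc" and "con" were read as ascorbic acid (vitamin C) and control. Of the counts from 1 to 10, 71.3 to 75.9% were even, and halved counts were among the alternatives.

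Genes were filtered with filterByExpr, scaled with TMM factors (0.984 to 1.03) and tested with edgeR 4.0.16 in R 4.3.3 (glmQLFit, robust, glmQLFTest, two-sided) without covariates, with Benjamini-Hochberg adjustment over 15271 genes. Standard errors were taken as the log2 fold change over the root of F, and 95% intervals from a t distribution with the fit's degrees of freedom, for each gene alone. The script was tested on simulated data, with changed genes drawn from the members' range of levels. It recovered 4% of 1.1-fold, 34% of 1.15-fold, 54% of 1.2-fold and 100% of 1.5-fold changes (50 genes each). Small changes can therefore be missed. GENCODE 29 gave positions and lengths, and RefSeq gave promoters. Every member is named, and from each other list up to 3 called genes by smallest p. Some marker genes, and the sums of the embryonic kidney and podocyte lists, are not reported here. The members and lists were chosen with earlier results of these data known. Alternatives were DESeq2 1.42.0, limma 3.58.1, other scalings and filters, cyclic loess, GC and length trends removed with mgcv 1.9.3 (95.2% of genes covered), a replicate block, no robust prior, a fold of 1.2, halved counts and each library left out. A fit with a lone ascorbic acid library takes its spread from the controls. The replicate block leaves control replicate 3 out of the comparison, as it has no treated partner.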

Additional observations from a re-analysis of the deposited data

How the results depend on the processing

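LAMB1, HSPG2, COL4A2 and LAMC1 kept their direction in all 18 alternatives. The number of members called higher (2) was 0 against a fold of 1.2, and 1 to 3 with a library left out. The number called lower (2) was 0 with library totals, with cyclic loess, with the 5 CPM filter and against a fold of 1.2, 1 with upper-quartile factors and 1 with the replicate block, and 0 to 1 with a library left out. At an unadjusted p under 0.05, edgeR had 2 lower members with library totals or the 5 CPM filter, limma with cyclic loess had 1, and the test against a fold of 1.2 had 2 higher and 0 lower. By adjusted p, DESeq2 and limma-voom each called 2 higher and 2 lower. All genes called (2182) numbered 1447 with cyclic loess, 286 against a fold of 1.2 and 1180 to 2047 with a library left out, lowest without control replicate 1. Higher and lower calls were 1303 and 879, 1712 and 389 with library totals, 1100 and 542 with the 5 CPM filter, 806 and 906 with DESeq2 and 1661 and 1413 with GC and length trends removed.

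COL4A5, not called, had a negative log2 fold change with DESeq2 (-0.0046), DESeq2 size factors (-0.0025), the replicate block (-0.0080) and GC and length trends removed (-0.010), and -0.018 to 0.049 with a library left out. NID1, not called, had -0.013 with the replicate block and -0.013 to 0.070 with a library left out. The log2 difference of LAMA1 over LAMA5 ranged from -0.19 to 0.079 with a library left out. The cause of these shifts was not tested. Against a fold of 1.2, 2 of the other collagen IV, laminin and nidogen genes, 4 associated matrix genes, 1 receptor, 1 biosynthesis gene, 1 turnover gene and 4 fibrillar collagens rose.

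With the replicate number as a block 1880 genes were called, the COL4A2 call ended (-0.16, adjusted p = 0.0586) and LAMA5 was called (0.31, adjusted p = 0.0329). Control replicate 3 has no treated partner and does not enter the comparison in that fit. Without control replicate 3, COL4A2 and LAMA5 likewise had -0.16 and 0.31. Libraries with the same number deviated together little (correlations across 15271 genes of 0.0247 and 0.0109), so the number was not taken as a pairing. With 2 and 3 libraries a group, changes of the size of COL4A2 and LAMC1 lie near the threshold.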
